A study of Arabidopsis thaliana with 24 samples.

Results

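In Arabidopsis roots measured with and without estradiol, 51 genes were higher by at least 2-fold with estradiol in ISH1&2 plants, which were made to carry a pair of inducible transcription factor genes, and lower by at least 2-fold with estradiol in ISH1 plants, which were made to carry a single one. They were found among 25048 genes whose signal was well above background on all 12 arrays of these lines, which is 0.204% of them, and the array carries 34290 genes in all. A transcript without a locus counts here as a gene of its own, so some genes may be counted more than once. The values that chose the genes are the responses of ISH1&2 and ISH1 plants, a response being the mean log2 level with estradiol minus the mean without it, so these responses are given as a description with no test. In the same 25048 genes, 2325 were at least 2-fold higher in ISH1&2 and 971 at least 2-fold lower in ISH1. The opposite pattern, lower in ISH1&2 and higher in ISH1, was met by 58 genes, while 1040 were higher in both lines and 499 lower in both.

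The series holds 24 one-colour Agilent arrays of root RNA from ISH1&2, ISH1, ISH2 and control plants, all in the Columbia (Col-0) background, each with 5 µM estradiol (induction) and without it (non-induction), with 3 arrays per group. Plants were 15 days old and had been moved to the plates with or without estradiol after 8 days. In this inducible system an activator that estradiol switches on is made under the CaMV 35S promoter, a promoter active in most plant tissues. The paper names the co-inducible plants ATHB25/REM7-ind and the single ones ATHB25-ind and REM7-ind. The labels do not say which gene ISH1 or ISH2 carries. By the probes given below, ATHB25 rose most in ISH1 and REM7 most in ISH2, so ISH1 matched ATHB25-ind and ISH2 matched REM7-ind. Levels are log2 of the processed signal minus the 75th percentile of the array, so a level of 0 is the 75th percentile of all probes on that array.

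As a check of the lines, the single probe of ATHB25 (AT5G65410) had a response of 4.89 in ISH1&2, 9.69 in ISH1, −1.23 in ISH2 and 0.89 in control roots. The 2 probes of REM7 (AT3G18960) had responses of 0.07 and 0.10 in ISH1&2, 3.00 and 2.67 in ISH1, 6.24 and 6.11 in ISH2, and 0.25 and 0.17 in control roots. In ISH1&2 roots they stood at 3.39 and 4.66 with estradiol, against 3.33 and 4.56 without it. So of the pair ATHB25 alone was at least 2-fold higher with estradiol there. Without estradiol the REM7 probes stood at −3.30 and −1.64 in control roots. ATHB25 stood at −0.64 in ISH1&2 roots without estradiol, against −8.90 in control roots. Both genes were thus already far above control roots in ISH1&2 plants without estradiol, so these arrays are no baseline free of them. The single lines without estradiol were also above control roots for their own gene. ATHB25 stood at −4.46 in ISH1 roots without estradiol, and the REM7 probes at −1.43 and 0.03 in ISH2 roots without it. An array that stands apart enters the rule itself. On ISH1 replicate 1 without estradiol, 90.9% of the probes were well above background, against 76.9% to 84.8% on the other arrays, and a dim spike-in read 103.8 there, against 6.71 to 15.9 elsewhere. Without this array 33 of the 51 genes kept a difference of at least 2-fold in ISH1, and the response nearest to 0 was −0.39. Control replicate 2 with estradiol also stood apart, with 9 of the 51 genes more than 1 log2 unit above both other arrays of its group (no share of all genes given). All 18 tested markers of root hairs, endodermis and root cap were well above background on all 24 arrays. Of 9 endodermis markers, 7 were lower with estradiol in ISH1&2, 7 in ISH1, 6 in ISH2 and 3 in control roots (limma, where 33% of all genes were lower in ISH1&2, 36.4% in ISH1, 21.9% in ISH2 and 7.85% in control roots). In the same order of lines 2, 2, 1 and 1 were higher, where 31.6%, 26.3%, 27.3% and 7.14% of all genes were. Of 6 markers of dividing cells, 5, 3, 1 and 1 were lower and 0, 0, 1 and 0 higher. Of 6 root hair markers, 0, 0, 1 and 1 were lower and 5, 2, 3 and 1 higher. Of 3 root cap markers, 0, 1, 0 and 0 were lower and 1, 0, 1 and 0 higher. Of 7 xylem markers, 5, 5, 1 and 0 were lower and 0, 1, 0 and 0 higher. The summed linear level of the endodermis markers, in units of the 75th percentile, was 20.6 to 23.4 in ISH1&2 with estradiol and 37.3 to 44.5 without it, 21.4 to 26.9 in ISH1 with estradiol and 36.5 to 40.1 without it, and 27.7 to 33.3 in ISH2 with estradiol and 37.4 to 41.8 without it. It was 29.5 to 30.4 in control roots with estradiol and 32.5 to 40.7 without it, and the part of these markers in the results was not tested. Since RNA came from whole roots, fewer cells of a type and less RNA per cell cannot be told apart. The labels do not say that replicates came from separate cultures, so p-values measure only the spread between these samples, and 3 against 3 arrays by exact permutation cannot go below 0.1.

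Some of the 51 genes act in chloroplasts. In the thylakoid membrane, light-harvesting proteins pass energy to the photosystems, and the chloroplast NDH complex, bound to photosystem I, returns electrons from the acceptor side to the plastoquinone pool. Roots normally hold colourless plastids and few chloroplasts, and greening of a root involves nuclear transcription factors such as GNC and sigma factors that guide the plastid RNA polymerase. SAUR genes form a large family named for their quick response to auxin and are known for a role in cell expansion.

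The 51 responses had a median of 1.83 in ISH1&2 (1.01 to 7.74) and of −1.21 in ISH1 (−3.06 to −1.0008), which the rule fixes. The rule did not use the responses of ISH2 and control roots. However, ISH1 and ISH2 arrays without estradiol on the same slide deviated together (r = 0.40, 0.24 and 0.31). So the ISH2 responses are not fully independent of the values that chose the genes, and how much this adds was not tested. In ISH2 roots the median was −1.40 (−3.67 to 1.25) and in control roots −0.14 (−1.41 to 1.55), and the median of all genes lay between −0.08 and 0.04 in each line. In ISH2, 41 of the 51 genes fell with estradiol (limma with Benjamini-Hochberg adjustment over 27812 genes, adjusted p below 0.05), where 21.9% of all genes did, and 1 gene, AT3G27025, rose, where 27.3% of all genes did. Genes with an ISH1 response of −1 or less that are not among the 51 also were mostly lower in ISH2, 657 of 920 (71.4%), with a median of −0.69. Of 2274 other genes at least 2-fold higher in ISH1&2, 706 (31.0%) fell and 850 (37.4%) rose in ISH2.

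**Figure D1:**
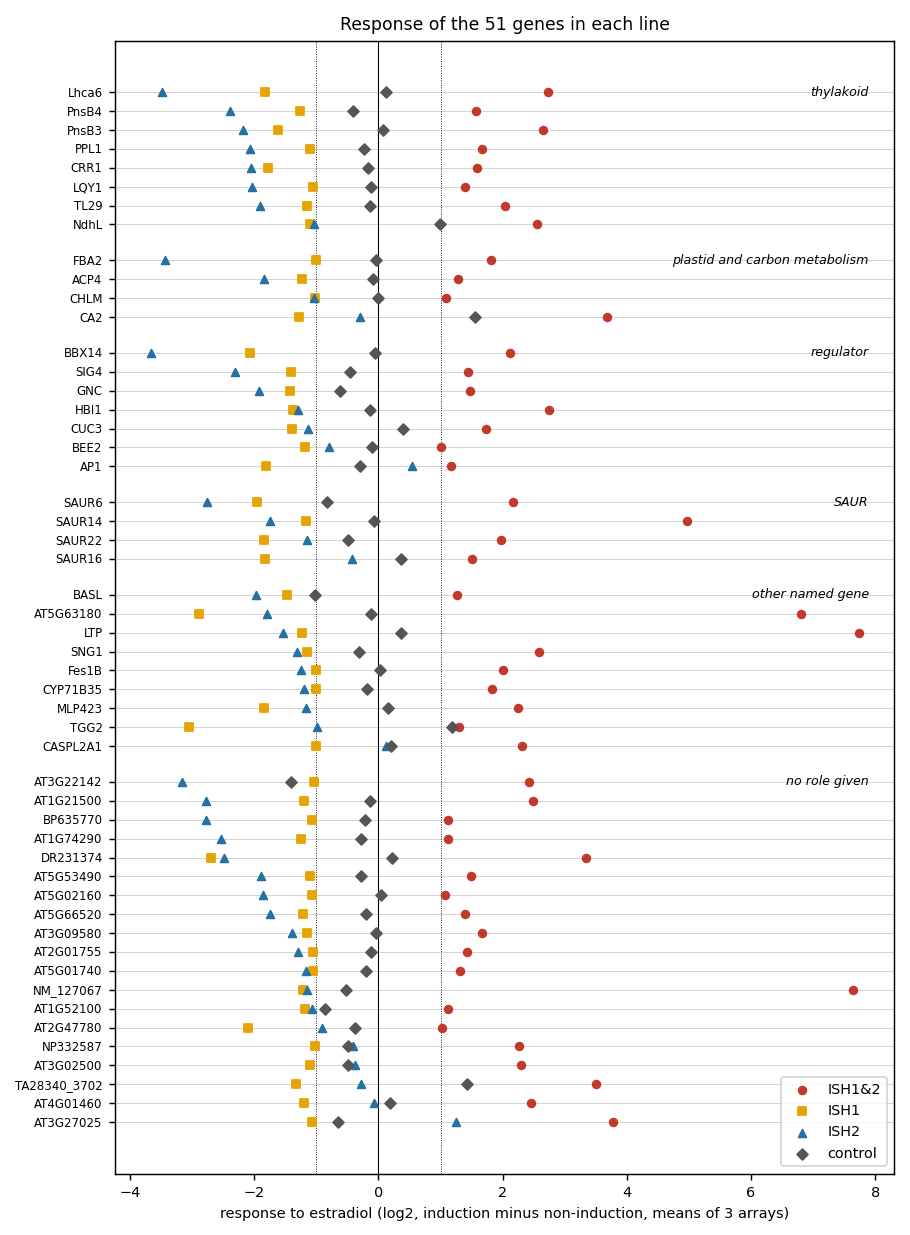
Response to estradiol (mean log2 level with minus mean without) of each of the 51 genes in ISH1&2, ISH1, ISH2 and control roots, with 1 row per gene, grouped by role, and 1 symbol per line. Symbols lie above 1 in ISH1&2 and below −1 in ISH1 by the rule, have a median of −1.40 in ISH2, and have a median of −0.14 in control roots.

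In control roots 8 of the 51 genes fell with estradiol, where 7.85% of all genes did, and 0 rose by limma, where 7.14% did, with 2 higher at an unadjusted p below 0.05. The response was lower in ISH2 than in control roots for 35 genes (11.1% of all genes) and higher for 1 (10.1% of all genes), and without control replicate 2 with estradiol for 31 (9.81% of all genes) and 0 (8.65%). With normexp background correction in place of the processed signal, the rule chose 7 genes, and of the 51, 23 fell in ISH2 and 18 had a lower response there than in control roots. The share of all genes called under normexp is not given, so its counts cannot be set against all genes. The 4 lines of a treatment and replicate number shared a slide, so a response compares slides, and the difference between ISH2 and control responses compares arrays of the same slides. Without estradiol, 0 of the 51 genes differed between ISH2 and control roots in either direction by limma (0.338% of all genes were lower and 0.313% higher), and at an unadjusted p below 0.05 they were 4 lower and 4 higher. No share of all genes is given at an unadjusted p, so these counts, and the 2 above, cannot be set against all genes. With estradiol, 39 were lower in ISH2 than in control roots (18.5% of all genes) and 1 was higher (21.5%). For 45 of the 51 genes all ISH2 arrays with estradiol lay below all ISH2 arrays without it, as 24.9% of all genes did, and for 3 all lay above, as 31.7% of all genes did.

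**Figure D2:**
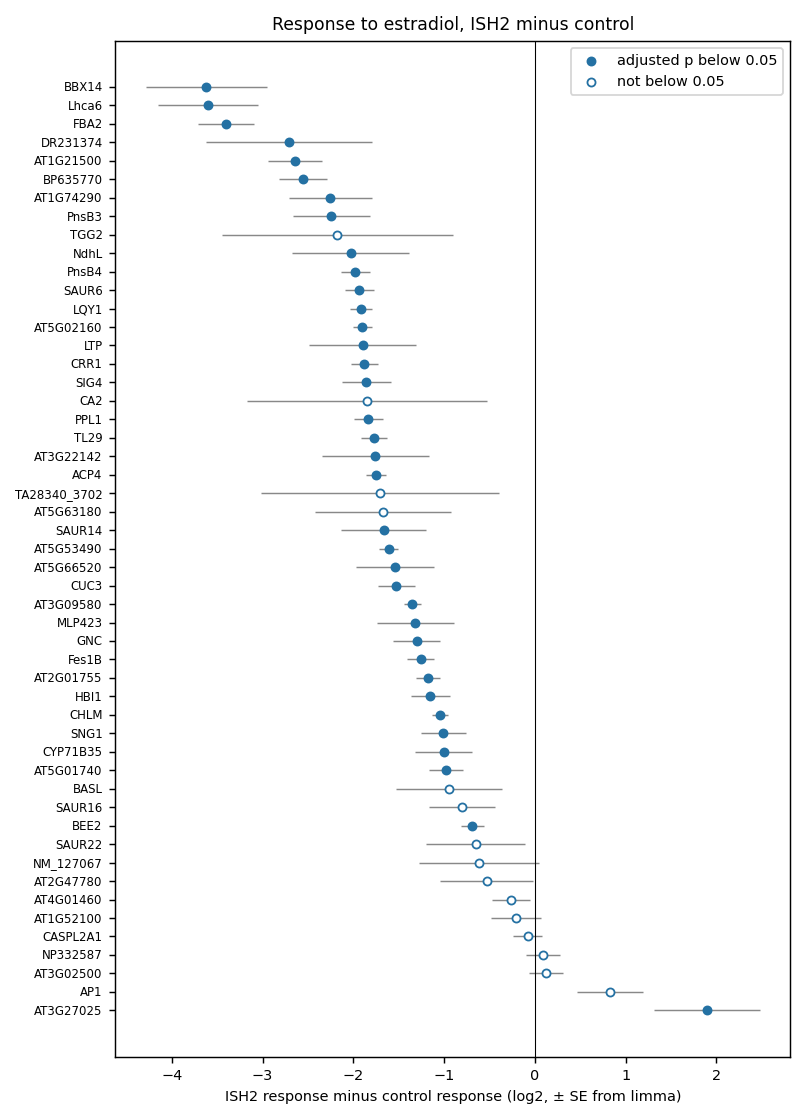
Difference between the ISH2 and the control response to estradiol (log2 units) for each of the 51 genes, ordered by size, with its standard error from limma and filled points where the adjusted p is below 0.05. Of the differences, 35 passed the test below 0 and 1, that of AT3G27025, above 0.

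The rule used the ISH1&2 and ISH1 levels, so their differences from control roots are a description that follows partly from the choice of genes. With estradiol all 51 genes were above control roots in ISH1&2 plants, by 0.60 to 7.55, where 45.3% of the 25048 genes were above. In ISH1 plants with estradiol 39 were below control roots, where 58.4% of the 25048 were, with a median difference of −0.82. Without estradiol 43 of the 51 were higher in ISH1 than in control roots, where 54.9% of the 25048 were, with a median difference of 0.24 and the largest, 5.29, for TGG2.

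Of 8 thylakoid genes, all had a lower response in ISH2 than in control roots, and 7 fell in ISH2. The values of 3 of them follow on every array. Lhca6 (AT1G19150) is the light-harvesting protein that links photosystem I to the NDH complex. Lhca6 in ISH1&2 roots was at −1.44, −1.67 and −2.04 with estradiol, against −4.47, −4.67 and −4.18 without it, and in ISH1 roots at −6.37, −5.87 and −5.78 with estradiol, against −3.85, −4.49 and −4.20 without it. In ISH2 roots Lhca6 was at −8.10, −8.33 and −6.93 with estradiol, against −4.20, −4.21 and −4.49 without it, and in control roots at −4.80, −3.18 and −4.94 with estradiol, against −4.56, −4.62 and −4.08 without it. In ISH2, where 2 of 3 arrays with estradiol were well above background, all arrays with estradiol lay below all arrays without it, and the response was −3.48 (standard error 0.39, adjusted p = 8.04e-07), which differed from the control response by −3.60 (standard error 0.55, adjusted p = 9.79e-05). PnsB3 (AT3G16250) is a subunit of the NDH complex on its B side. PnsB3 in ISH1&2 roots was at −2.19, −2.45 and −2.52 with estradiol, against −5.08, −5.18 and −4.83 without it, and in ISH1 roots at −5.95, −6.01 and −5.96 with estradiol, against −3.80, −4.71 and −4.55 without it. In ISH2 roots PnsB3 was at −7.13, −7.44 and −6.73 with estradiol, against −4.85, −4.90 and −5.03 without it, and in control roots at −5.36, −4.07 and −5.38 with estradiol, against −5.22, −5.28 and −4.50 without it. All 3 ISH2 arrays with estradiol lay below all 3 without it, with a response of −2.18 (standard error 0.30, adjusted p = 1.05e-05) and a difference from the control response of −2.24 (standard error 0.43, adjusted p = 0.00081). CRR1 (AT5G52100) is needed to assemble the NDH complex. CRR1 in ISH1&2 roots was at −2.11, −2.10 and −2.04 with estradiol, against −3.59, −3.86 and −3.57 without it, and in ISH1 roots at −5.28, −4.87 and −5.02 with estradiol, against −3.23, −3.46 and −3.15 without it. In ISH2 roots CRR1 was at −5.39, −5.68 and −5.46 with estradiol, against −3.53, −3.44 and −3.42 without it, and in control roots at −3.54, −3.56 and −3.54 with estradiol, against −3.45, −3.48 and −3.21 without it. All 3 ISH2 arrays with estradiol were below every other ISH2 and control array, the response being −2.04 (standard error 0.11, adjusted p = 5.3e-11) and its difference from the control response −1.88 (standard error 0.15, adjusted p = 6.05e-08). The other 5 were PnsB4 (AT1G18730) and NdhL (AT1G70760) of the NDH complex, PPL1 (AT3G55330) and LQY1 (AT1G75690), which take part in photosystem II repair, and TL29 (AT4G09010), a protein of the lumen. Their differences between ISH2 and control responses lay between −2.03 for NdhL and −1.77 for TL29. NdhL was at −3.97 on control replicate 2 with estradiol, against −6.46 and −6.32 on the other arrays of that group, and without that array its difference was −1.22 (adjusted p = 0.0274).

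**Figure D3:**
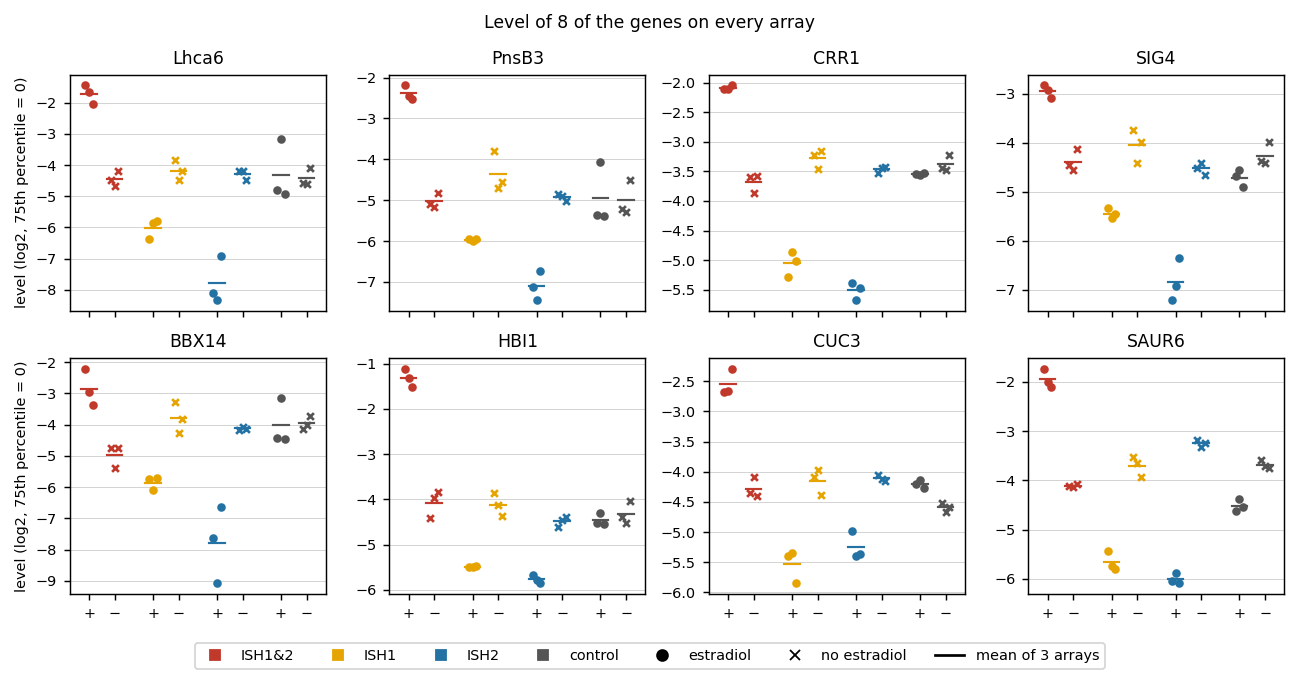
Level (log2 processed signal minus the 75th percentile of the array) of Lhca6, PnsB3, CRR1, SIG4, BBX14, HBI1, CUC3 and SAUR6 on each of the 24 arrays, by line, with estradiol left of without it. In ISH2 all arrays with estradiol lie below all without it for each of the 8 genes.

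Of 4 genes of plastid and carbon metabolism, 3 fell in ISH2 and had a lower response there than in control roots. FBA2 (AT4G38970) is a plastid aldolase of the Calvin cycle. FBA2 in ISH1&2 roots was at 3.22, 3.18 and 3.17 with estradiol, against 1.23, 1.32 and 1.58 without it, and in ISH1 roots at 0.91, 0.80 and 0.45 with estradiol, against 1.87, 1.45 and 1.85 without it. In ISH2 roots FBA2 was at −1.43, −2.29 and −1.29 with estradiol, against 1.86, 1.77 and 1.67 without it, and in control roots at 1.19, 1.86 and 1.22 with estradiol, against 1.41, 1.33 and 1.64 without it. The ISH2 arrays with estradiol lay below all the others, with a response of −3.44 (standard error 0.22, adjusted p = 5.88e-10) and a difference from the control response of −3.40 (standard error 0.31, adjusted p = 2.4e-07). ACP4 (AT4G25050), an acyl carrier protein for plastid fatty acid synthesis, and CHLM (AT4G25080), a methyltransferase of chlorophyll synthesis, had ISH2 responses of −1.83 (standard error 0.08, adjusted p = 3.73e-12) and −1.04 (standard error 0.06, adjusted p = 3.37e-10). CA2 (AT5G14740), a carbonic anhydrase, had an ISH2 response of −0.30 that did not pass the test (limma, adjusted p = 0.822). It was at −0.92 on control replicate 2 with estradiol and at −6.62 and −5.21 on the other arrays of that group.

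Of 7 regulators, 6 fell in ISH2 and had a lower response there than in control roots. BBX14 (AT1G68520) is a B-box zinc finger protein. BBX14 in ISH1&2 roots was at −2.21, −2.97 and −3.37 with estradiol, against −4.75, −5.40 and −4.76 without it, and in ISH1 roots at −5.75, −6.10 and −5.70 with estradiol, against −3.27, −4.26 and −3.82 without it. In ISH2 roots BBX14 was at −7.63, −9.08 and −6.64 with estradiol, against −4.17, −4.07 and −4.13 without it, and in control roots at −4.42, −3.14 and −4.47 with estradiol, against −4.13, −4.02 and −3.73 without it. In ISH2, with 2 of 3 arrays with estradiol well above background, the response was −3.67 (standard error 0.47, adjusted p = 4.22e-06), and the difference from the control response, −3.62 (standard error 0.67, adjusted p = 0.000589), was the largest of the 51. SIG4 (AT5G13730) is a sigma factor that guides the plastid polymerase to a gene of the NDH complex. SIG4 in ISH1&2 roots was at −2.83, −2.92 and −3.09 with estradiol, against −4.47, −4.56 and −4.13 without it, and in ISH1 roots at −5.34, −5.54 and −5.46 with estradiol, against −3.73, −4.42 and −3.98 without it. In ISH2 roots SIG4 was at −7.21, −6.93 and −6.36 with estradiol, against −4.51, −4.41 and −4.66 without it, and in control roots at −4.69, −4.55 and −4.91 with estradiol, against −4.38, −4.42 and −3.99 without it. Its ISH2 arrays with estradiol lay below all others of ISH2 and control, with a response of −2.31 (standard error 0.19, adjusted p = 2.13e-08) and a difference from the control response of −1.86 (standard error 0.27, adjusted p = 6.71e-05). GNC (AT5G56860) is a GATA factor that promotes greening. GNC in ISH1&2 roots was at −3.95, −3.74 and −3.86 with estradiol, against −5.55, −5.21 and −5.20 without it, and in ISH1 roots at −6.41, −6.04 and −6.27 with estradiol, against −4.35, −5.27 and −4.83 without it. In ISH2 roots GNC was at −6.61, −6.75 and −7.13 with estradiol, against −5.07, −4.98 and −4.70 without it, and in control roots at −5.55, −5.53 and −5.52 with estradiol, against −4.90, −4.78 and −5.08 without it. It fell in both lines, with a response of −1.92 (standard error 0.18, adjusted p = 1e-07) in ISH2 and of −0.61 (standard error 0.18, adjusted p = 0.0298) in control roots, and these differed by −1.30 (standard error 0.26, adjusted p = 0.0011).

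HBI1 (AT2G18300) is a bHLH factor that promotes cell elongation. HBI1 in ISH1&2 roots was at −1.11, −1.32 and −1.52 with estradiol, against −4.41, −3.97 and −3.83 without it, and in ISH1 roots at −5.50, −5.49 and −5.47 with estradiol, against −3.86, −4.13 and −4.36 without it. In ISH2 roots HBI1 was at −5.68, −5.77 and −5.86 with estradiol, against −4.61, −4.45 and −4.39 without it, and in control roots at −4.53, −4.31 and −4.55 with estradiol, against −4.40, −4.53 and −4.05 without it. The 3 ISH2 arrays with estradiol were the lowest of ISH2 and control, the response was −1.29 (standard error 0.15, adjusted p = 1.58e-06), and it differed from that of control roots by −1.15 (standard error 0.22, adjusted p = 0.000695). CUC3 (AT1G76420) is a NAC factor that marks boundaries between organs, and was the single gene of the 51 in any of 13 pathway lists. CUC3 in ISH1&2 roots was at −2.68, −2.66 and −2.29 with estradiol, against −4.35, −4.09 and −4.40 without it, and in ISH1 roots at −5.40, −5.35 and −5.85 with estradiol, against −4.09, −3.97 and −4.39 without it. In ISH2 roots CUC3 was at −4.99, −5.39 and −5.37 with estradiol, against −4.05, −4.12 and −4.16 without it, and in control roots at −4.20, −4.13 and −4.27 with estradiol, against −4.52, −4.66 and −4.59 without it. It fell in ISH2 while the control arrays with estradiol all lay above those without it, which gave a response of −1.14 (standard error 0.14, adjusted p = 3.32e-06) in ISH2, one of 0.39 (standard error 0.14, adjusted p = 0.0782) in control roots and a difference of −1.53 (standard error 0.20, adjusted p = 2.07e-05). BEE2 (AT4G36540), a bHLH factor of the brassinosteroid response, had an ISH2 response of −0.79 (standard error 0.09, adjusted p = 1.12e-06). AP1 (AT1G69120), a MADS factor of floral meristem identity, was the regulator that did not pass the test, at 0.54 (standard error 0.25, adjusted p = 0.0907) in ISH2.

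Of 4 SAUR genes, 3 fell in ISH2 and 2 had a lower response there than in control roots. SAUR6 (AT2G21210) did both. SAUR6 in ISH1&2 roots was at −1.73, −2.00 and −2.11 with estradiol, against −4.12, −4.14 and −4.07 without it, and in ISH1 roots at −5.44, −5.75 and −5.81 with estradiol, against −3.53, −3.65 and −3.94 without it. In ISH2 roots SAUR6 was at −6.05, −5.89 and −6.10 with estradiol, against −3.19, −3.31 and −3.24 without it, and in control roots at −4.62, −4.38 and −4.54 with estradiol, against −3.59, −3.70 and −3.76 without it. It fell in both lines, with a response of −2.76 (standard error 0.11, adjusted p = 3.13e-12) in ISH2 and of −0.83 (standard error 0.11, adjusted p = 0.000155) in control roots, and these differed by −1.94 (standard error 0.16, adjusted p = 8.01e-08). SAUR22 (AT5G18050) was near background in several groups. SAUR22 in ISH1&2 roots was at −5.57, −5.94 and −5.92 with estradiol, against −7.56, −7.76 and −8.05 without it, and in ISH1 roots at −8.07, −8.09 and −7.92 with estradiol, against −5.00, −6.44 and −7.13 without it. In ISH2 roots SAUR22 was at −8.61, −8.09 and −8.48 with estradiol, against −6.74, −7.15 and −7.85 without it, and in control roots at −8.51, −8.06 and −7.47 with estradiol, against −7.55, −7.57 and −7.44 without it. It was not well above background on any ISH2 array with estradiol, where it was at least 1.99-fold lower than in ISH2 roots without it (limma, adjusted p = 0.0202). Such a bound sets the dim group at its own signal or, where that is higher, at the dimmest signal that passed the background test on an array. Its ISH2 and control responses differed by −0.65 (standard error 0.55, adjusted p = 0.468). SAUR16 (AT4G38860) was lower in ISH1 with estradiol than in any other group. SAUR16 in ISH1&2 roots was at −4.44, −4.24 and −4.53 with estradiol, against −5.77, −5.87 and −6.12 without it, and in ISH1 roots at −8.17, −7.48 and −7.38 with estradiol, against −5.23, −5.98 and −6.33 without it. In ISH2 roots SAUR16 was at −6.52, −6.40 and −7.10 with estradiol, against −6.42, −6.21 and −6.11 without it, and in control roots at −6.05, −5.81 and −5.66 with estradiol, against −6.44, −5.85 and −6.34 without it. The ISH2 arrays overlapped, and the response was −0.43 (standard error 0.26, adjusted p = 0.176). SAUR14 (AT4G38840), the SAUR gene with the largest ISH1&2 response of 4.97, had an ISH2 response of −1.74 (standard error 0.33, adjusted p = 0.000287), with 2 of 3 ISH2 arrays with estradiol well above background. Several SAUR genes are near-identical, and a probe can bind a copy, so values of single SAUR genes are uncertain in that respect.

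Of 9 other named genes, 7 fell in ISH2 and 5 had a lower response there than in control roots, or 3 without control replicate 2 with estradiol, when MLP423 and LTP no longer passed. AT5G63180, annotated as a putative pectate lyase, an enzyme of cell wall pectin, ranked first by the smaller of its ISH1&2 and ISH1 responses. AT5G63180 in ISH1&2 roots was at −0.34, −0.48 and −0.30 with estradiol, against −7.09, −7.41 and −7.00 without it, and in ISH1 roots at −6.04, −6.37 and −6.56 with estradiol, against −2.08, −3.37 and −4.88 without it. In ISH2 roots AT5G63180 was at −9.25, −9.35 and −9.79 with estradiol, against −7.13, −8.07 and −7.80 without it, and in control roots at −8.31, −6.10 and −7.56 with estradiol, against −7.03, −7.44 and −7.15 without it. The 3 ISH1 arrays without estradiol lay 2.80 apart from lowest to highest. It was not well above background on any ISH2 array with estradiol, at least 1.53-fold lower than in ISH2 roots without it (limma, adjusted p = 0.00941). MLP423 (AT1G24020) is a protein of the major latex protein family. MLP423 in ISH1&2 roots was at −1.42, −1.71 and −1.31 with estradiol, against −4.09, −3.66 and −3.45 without it, and in ISH1 roots at −4.80, −4.27 and −4.08 with estradiol, against −1.69, −2.72 and −3.20 without it. In ISH2 roots MLP423 was at −4.62, −5.10 and −5.63 with estradiol, against −3.91, −3.92 and −4.03 without it, and in control roots at −4.38, −4.18 and −4.33 with estradiol, against −4.53, −4.26 and −4.55 without it. Its ISH2 response was −1.17 (standard error 0.30, adjusted p = 0.00357) and differed from the control response by −1.32 (standard error 0.42, adjusted p = 0.0337). Without control replicate 2 with estradiol the difference was −1.26 and the call was lost (adjusted p = 0.0707). TGG2 (AT5G25980) is a myrosinase, which splits glucosinolates. TGG2 in ISH1&2 roots was at −5.13, −7.79 and −7.93 with estradiol, against −7.95, −8.11 and −8.68 without it, and in ISH1 roots at −6.62, −6.31 and −6.55 with estradiol, against −2.50, −3.09 and −4.72 without it. In ISH2 roots TGG2 was at −8.72, −9.33 and −9.33 with estradiol, against −7.21, −8.17 and −9.02 without it, and in control roots at −9.42, −5.04 and −8.18 with estradiol, against −7.88, −9.12 and −9.18 without it. It was the only one of the 51 whose mean with estradiol was higher in ISH1 than in ISH1&2, and the ISH1&2 arrays with estradiol spread over 2.80. It was not well above background on any ISH2 array with estradiol, and neither the ISH2 response (adjusted p = 0.387) nor its difference from control roots (adjusted p = 0.263) passed the test.

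LTP (AT2G15050), a lipid-transfer protein, had the largest ISH1&2 response, 7.74. It had levels of 0.93, 0.80 and 0.85 there with estradiol, against −7.24, −7.17 and −6.23 without it. With 1 of 3 ISH2 arrays with estradiol well above background, its ISH2 response was −1.54 (standard error 0.42, adjusted p = 0.00521). It differed from the control response by −1.90 (standard error 0.59, adjusted p = 0.0282), or by −1.55 without control replicate 2 with estradiol (adjusted p = 0.0838). BASL (AT5G60880), a polarity protein of the stomatal lineage, was not well above background on any ISH2 array with estradiol, where its signal lay at least 1.70-fold under that of ISH2 roots without estradiol (limma, adjusted p = 0.000694). Its control response was −1.03, from which the ISH2 response differed by −0.94 (limma, standard error 0.59, adjusted p = 0.297). A second, dimmer probe of BASL had a response of 1.06 in ISH2 and 0.55 in ISH1&2. That probe was not well above background on all 12 arrays of the rule. SNG1 (AT2G22990), which makes sinapoylmalate, had an ISH2 response of −1.31 (standard error 0.17, adjusted p = 6.2e-06), and Fes1B had one of −1.24 (standard error 0.10, adjusted p = 1.8e-08).

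The other 19 genes have no role given here, and 15 of them fell in ISH2. The response was lower in ISH2 than in control roots for 11, or for 9 without control replicate 2 with estradiol, when DR231374 and AT3G22142 no longer passed. Values on every array are given for 3 of these by rank or by the size of their difference, and for the single gene that rose. DR231374 is a transcript known by its accession. DR231374 in ISH1&2 roots was at −1.43, −2.18 and −2.64 with estradiol, against −5.39, −5.76 and −5.15 without it, and in ISH1 roots at −6.68, −5.94 and −6.07 with estradiol, against −2.65, −3.69 and −4.25 without it. In ISH2 roots DR231374 was at −7.36, −7.87 and −7.23 with estradiol, against −4.92, −4.85 and −5.23 without it, and in control roots at −6.22, −2.56 and −5.74 with estradiol, against −5.20, −5.24 and −4.76 without it. Control replicate 2 with estradiol stood above the other arrays of its group, and the ISH2 and control responses differed by −2.71 (standard error 0.91, adjusted p = 0.0422), with 2 of 3 ISH2 arrays with estradiol well above background. Without that control array the difference was −1.57 and the call was lost (adjusted p = 0.0513). TA28340_3702 followed CA2 over the 24 arrays (r = 0.99, with slides and lines shared). Whether TA28340_3702, which has no locus, is a gene separate from CA2 was not tested. TA28340_3702 in ISH1&2 roots was at −3.15, −4.17 and −4.71 with estradiol, against −7.44, −7.38 and −7.71 without it, and in ISH1 roots at −6.46, −6.34 and −6.09 with estradiol, against −3.61, −4.98 and −6.34 without it. In ISH2 roots TA28340_3702 was at −8.27, −8.49 and −8.57 with estradiol, against −8.17, −8.26 and −8.05 without it, and in control roots at −8.79, −3.22 and −7.52 with estradiol, against −7.55, −8.03 and −8.21 without it. It was not well above background on any ISH2 array with estradiol, and its ISH2 response did not pass the test (adjusted p = 0.829). AT1G21500 is a locus with no role given. AT1G21500 in ISH1&2 roots was at −0.33, −0.50 and −0.39 with estradiol, against −3.03, −3.04 and −2.61 without it, and in ISH1 roots at −3.88, −3.98 and −4.21 with estradiol, against −2.66, −2.97 and −2.84 without it. In ISH2 roots AT1G21500 was at −5.61, −6.15 and −5.37 with estradiol, against −2.86, −2.85 and −3.10 without it, and in control roots at −3.11, −2.74 and −3.36 with estradiol, against −3.11, −3.23 and −2.46 without it. The ISH2 arrays with estradiol lay below all other ISH2 and control arrays, with a response of −2.78 (standard error 0.21, adjusted p = 5.16e-09) and a difference from the control response of −2.64 (standard error 0.30, adjusted p = 3.02e-06). AT3G27025 went the other way. AT3G27025 in ISH1&2 roots was at −3.32, −3.46 and −3.64 with estradiol, against −7.08, −7.29 and −7.37 without it, and in ISH1 roots at −6.45, −7.31 and −7.77 with estradiol, against −4.73, −6.71 and −6.87 without it. In ISH2 roots AT3G27025 was at −5.61, −5.68 and −5.77 with estradiol, against −6.46, −7.14 and −7.19 without it, and in control roots at −7.71, −7.87 and −7.20 with estradiol, against −6.90, −6.89 and −7.04 without it. Its ISH2 response was 1.25 (standard error 0.41, adjusted p = 0.018) and differed from the control response by 1.89 (standard error 0.58, adjusted p = 0.0261), a difference of 1.76 without control replicate 2 with estradiol (adjusted p = 0.0632). Without ISH1 replicate 1 without estradiol its ISH1 response was −0.39.

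Some of 14 leaf genes looked at were high on the arrays that stood apart. On control replicate 2 with estradiol 13 were the highest of the 3 arrays of the group and 4 were more than 1 log2 unit above both others, and on ISH1 replicate 1 without estradiol 10 were the highest and 6 were more than 1 above both. TGG1, a myrosinase of leaves, was at −2.07 on control replicate 2 with estradiol, against −10.10 and −7.07 on the others of that group, and CA1, the chloroplast carbonic anhydrase, at −0.50, against −6.75 and −4.97. In ISH1 roots without estradiol, TGG1 was at −1.59, −2.66 and −4.10, CA1 at −2.60, −3.73 and −4.52, and the leaf transcription factor gene YAB5 at −5.15, −6.74 and −8.61. CA2, among the 51, was at −1.30, −2.61 and −4.00 there, in the same order. In control roots without estradiol, TGG1 was at −10.24, −10.52 and −9.39 and CA1 at −6.24, −6.75 and −6.32. YAB5 was at −10.09, −10.34 and −10.59 there, and CA2 at −5.68, −5.99 and −5.73. All 3 ISH1 arrays without estradiol thus lay above all 3 of control roots for each of these genes. The 3 arrays spread by more than 1 log2 unit for 19 of the 51 genes in ISH1 without estradiol and for 13 in control roots with estradiol, against 2 to 8 in the other groups. The share of all genes with such a spread is not given, and the rule itself used the ISH1 arrays. The 14 genes, chosen after the 51 were known and 4 of them also in the photosynthesis list, had a summed linear level, in units of the 75th percentile, of 112 to 119 in ISH1&2 with estradiol and 25.6 to 31.1 without it. The sum was 19.6 to 27.1 in ISH1 with estradiol and 28.0 to 32.9 without it, 3.32 to 4.82 in ISH2 with estradiol and 24.7 to 28.0 without it, and 19.2 to 31.4 in control roots with estradiol and 23.6 to 29.3 without it. Most of each sum came from the bright genes RBCS1A and RBCS1B. The sum of CA1, TGG1, YAB5 and YAB3 was 1.21 to 2.83 in ISH1&2 with estradiol and 0.0257 to 0.0323 without it. It was 0.261 to 0.302 in ISH1 with estradiol, where CA1 made up most of it, and 0.109 to 0.559 without it. On the ISH1 arrays with estradiol, CA1 was at −2.00, −1.99 and −1.79. TGG1 was at −8.50, −9.07 and −9.80 there, not well above background on any of them. In ISH2 the sum was 0.0206 to 0.0262 with estradiol and 0.0140 to 0.0215 without it. In control roots it was 0.0125 to 0.951 with estradiol and 0.0129 to 0.0165 without it. In control roots without estradiol 9 of the 14 were well above background on all 3 arrays, whereas TGG1, FAMA, YAB5 and YAB3 were on none. The part of leaf RNA in the result was not tested. Without both arrays, 33 of the 51 genes still met the rule, and 29 of these fell in ISH2 in the fit of all arrays. In the fit without both, 33 of the 51 had a lower response in ISH2 than in control roots, with no share of all genes given. The other ISH1 arrays without estradiol, where TGG1 and CA1 were also above control roots, stay in these counts.

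**Figure D4:**
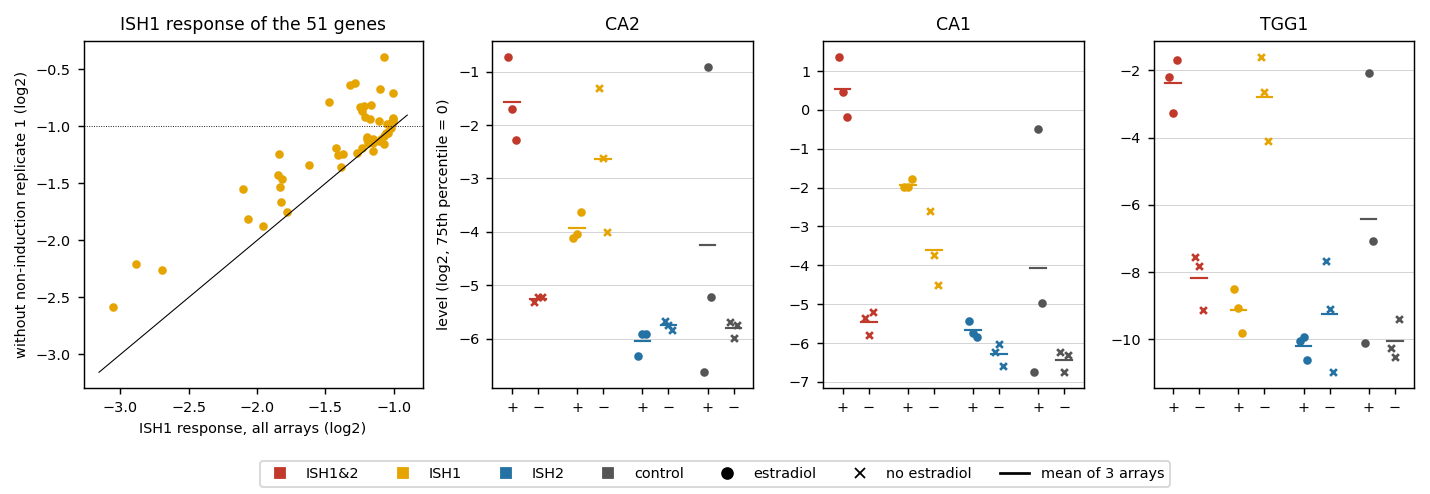
ISH1 response of each of the 51 genes with all 3 ISH1 arrays without estradiol and with replicate 1 left out (solid line, equal values), and the levels (log2) of CA2, CA1 and TGG1 on every array with (+) and without (−) estradiol, with bars at group means. Without that array 33 genes keep a response of −1 or less, and among control arrays these 3 genes are highest on replicate 2 with estradiol.

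Related genes were read from lists, with counts of calls by limma. Of all genes tested, 31.6% were higher and 33% lower in ISH1&2, and 26.3% were higher and 36.4% lower in ISH1. In ISH2 27.3% were higher and 21.9% lower, and in control roots 7.14% and 7.85%. All 14 photosynthesis genes were higher in ISH1&2 and lower in ISH2 with estradiol, 8 were lower in ISH1, and 0 passed in either direction in control roots by limma, with 1 lower at an unadjusted p below 0.05 (no share of all genes given). The NDH, light-harvesting, sigma factor, SAUR and B-box families were chosen after the 51 were known, because some of the 51 belong to them, so counts are of their other genes. Of 14 NDH subunits, 13 were higher in ISH1&2, 4 lower in ISH1 and 9 lower in ISH2. Among these 14, 10 were at least 2-fold higher in ISH1&2, where 9.28% of the 25048 genes were. In ISH1, 2 were at least 2-fold lower, where 3.88% of the 25048 were. Of 20 light-harvesting proteins, 19 were higher in ISH1&2, 11 lower and 1 higher in ISH1, and 20 lower in ISH2. Of 4 plastid sigma factors, 3 were higher in ISH1&2, 3 lower in ISH1 and 4 lower in ISH2. Of 60 SAUR genes, 25 were higher and 24 lower in ISH1&2, 3 higher and 36 lower in ISH1, and 6 higher and 23 lower in ISH2. Of 26 B-box genes, 13 were higher and 3 lower in ISH1&2, 7 higher and 14 lower in ISH1, and 19 lower in ISH2. Of 8 organ boundary genes other than CUC3, 6 were higher and 1 lower in ISH1&2, 1 higher and 3 lower in ISH1, and 5 lower in ISH2.

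**Figure D5:**
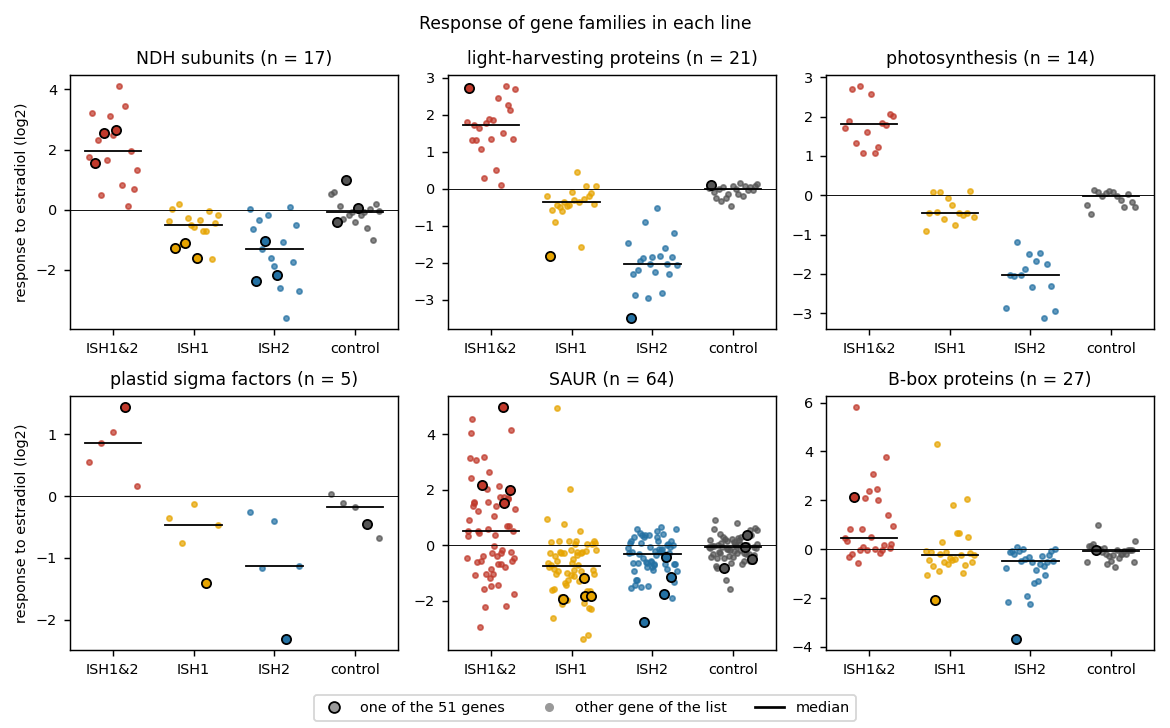
Response to estradiol (log2) of the tested genes of 6 families in ISH1&2, ISH1, ISH2 and control roots, 1 point per gene, with bars at medians and genes among the 51 outlined. Of the 20 light-harvesting proteins not among the 51, 19 passed the test above 0 in ISH1&2 and 20 below 0 in ISH2.

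The 46 genes with a locus lay on all 5 chromosomes (12, 6, 8, 8 and 12 on chromosomes 1 to 5). ACP4 and CHLM lay with 1 gene between them on chromosome 4, and AT4G38840 and AT4G38860 with 2 between them. Over the 24 arrays, which share slides and lines, ACP4 and CHLM had r = 0.98 and AT4G38840 and AT4G38860 r = 0.74. AT3G02500 and NP332587 had r = 0.99, and LTP and NM_127067 had r = 0.98. NP332587 and NM_127067 have no locus. In ISH1&2 roots with estradiol NM_127067 was at 0.96, 0.80 and 0.80, and LTP at 0.93, 0.80 and 0.85. In control roots without estradiol NM_127067 was at −5.14, −7.22 and −6.13, and LTP at −7.34, −7.16 and −6.64. Genes with different loci also reached r = 0.99 (AT1G75690 and AT5G53490), so r cannot tell whether such a pair is a single transcript. This was not tested, so a transcript may be counted more than once. Just inside the threshold lay AT1G17200 (CASPL2A1), CYP71B35 and FBA2, with ISH1 responses of −1.0017, −1.0010 and −1.0008. Just outside lay AV790791, with an ISH1&2 response of 0.9998, NM_127861, with an ISH1 response of −0.9971, and TA37295_3702, with an ISH1&2 response of 0.9951.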

How the data were processed

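Labelled RNA of Arabidopsis roots was hybridized to 24 one-colour arrays. Per the file headers, the deposited intensity is the processed signal of each probe from Feature Extraction 10.7.3.1, corrected for background by the scanner software. The authors also deposited log2 values, for which the methods give a shift of each array to its 75th percentile, and these were used only as an alternative. The labels of 2 control arrays (non-induction replicate 2, induction replicate 3) hold a description at odds with title, source and genotype, which were followed.

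Control spots and 346 marked spots were left out, spots of a probe were averaged, and log2 minus the 75th percentile of the array (4577 to 6427 in intensity) was taken. Probes that passed the background test on every array of 1 or more of 8 groups were kept, and the brightest probe on average stood for each of 27812 genes, 22277 of them with a locus. Differences were tested, two-sided, with limma 3.58.1 in R 4.3.3, all 24 arrays in 8 groups without a block, with Benjamini-Hochberg adjustment over all genes at 0.05, and the fit was tested on simulated data. The 51 genes and all lists were chosen with earlier results of these data known. Values on every array are given for the first 16 genes by the smaller of their ISH1&2 and ISH1 responses. Also named are genes in a list, the 5 largest called differences between ISH2 and control responses, the genes nearest to the threshold and chromosome neighbours. Others were named after their values were seen. The planned promoter motif search was not run. The number of arrays, 3 per group, limits the precision. Same-numbered ISH2 and control samples, which share a slide, did not deviate together (r −0.06 to 0.07).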

Additional observations from a re-analysis of the deposited data

Results flagged for a closer look

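The response to estradiol differed between ISH2 and control roots, by a test of the difference itself, for 36 of the 51 genes, lower in ISH2 for 35 and higher for 1. The largest differences were −3.62 for BBX14, −3.60 for Lhca6, −3.40 for FBA2, −2.71 for DR231374 and −2.64 for AT1G21500 on the log2 scale. The single gene with a higher response in ISH2 was AT3G27025, at 1.89. Without control replicate 2 with estradiol, DR231374 was at −1.57 (adjusted p = 0.0513 from limma), smaller in size than −2.49 for BP635770 and −2.12 for AT1G74290, and AT3G27025 was at 1.76 (adjusted p = 0.0632), so the calls of DR231374 and AT3G27025 were lost. AT1G74290 was not well above background on any ISH2 array with estradiol, so its −2.12 is uncertain. Its signal there was at least 2.35-fold lower than in ISH2 roots without estradiol. In data that no comparison uses, the spike-in E1A_r60_a104 read 103.8 on ISH1 replicate 1 without estradiol, against 6.71 to 15.9 on the other arrays.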

How the results depend on the processing

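The choice of the 51 genes moved most. Quantile normalization gave 77 genes (44 shared), normexp background correction 7 (6 shared) and a threshold of 1.5 on the log2 scale 10. Leaving out each array in turn gave 36 genes (without ISH1 replicate 1 without estradiol) to 69 (without its replicate 2), and 23 genes were chosen each time. With normexp, which moved the median response of all genes by over 0.1 to 0.11 in ISH1 and 0.12 in control roots, all 51 genes kept an ISH1&2 response above 0 and 42 an ISH1 response below 0. Under it, 23 genes fell in ISH2, 0 fell in control roots and 18 had a lower response in ISH2 than in control roots. Among the alternatives, the share of all genes called is given only for that without control replicate 2 with estradiol. Without the 2 control arrays of contradictory description, 1 gene fell in control roots.

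Leaving out each array in turn gave 37 to 43 genes that fell in ISH2, 2 to 9 that fell in control roots and 29 to 35 with a lower response in ISH2. It gave 0 to 0 lower in ISH2 than in control roots without estradiol and 36 to 40 with it. The 2 falls in control roots were found without control replicate 3 with estradiol, 3 without replicate 3 without it and 5 without replicate 1 with it. Leaving out the arrays that stand apart together was chosen after seeing the data and gave 36 genes. The cause of these changes was not tested.

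With the replicate number as a block, 40 genes fell in ISH2, 8 fell in control roots, 34 had a lower response in ISH2, and 0 without and 38 with estradiol were lower than in control roots. Deviations of samples with the same number, with and without estradiol, had r between −0.04 and 0.10. Between lines on the same slide r was −0.09 to 0.40, over 0.1 in 7 of 36 pairs, among them all 3 of ISH1 and ISH2 without estradiol (0.40, 0.24 and 0.31), and −0.06 to 0.07 between ISH2 and control. The numbers were not taken as pairs in the comparisons tested. Of 1262 values for single genes, 54 no longer passed the threshold, 1 newly passed it and 0 changed direction. Signals near background limit the dim genes, 6 of which were not well above background on any ISH2 array with estradiol.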
